A study of Mus musculus with 6 samples.

Results

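The genes described here are those that stood well above a reference RNA in control Th17-polarized T cells and were at least 2-fold lower in T cells without Irf4. They were chosen from the 689 genes that carry a symbol in the authors' deposited table of changed probes. A gene was taken if the mean of its log2 ratios to the reference was at least 1.5 in heterozygous cells and the null mean was lower by at least 1. Of 117 genes past both limits, 34 were set aside by name, mainly cytokines, cytokine and chemokine receptors and other well-known T cell genes, which leaves 83 members. Another 243 listed genes were lower by 1 or more in null cells but had a heterozygous mean under 1.5. Because the difference between the genotypes chose the members, their lower values in null cells are a description and not a finding. Whether a member passed a fit over all features is stated only to fix the wording, and it supports nothing.

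The samples were splenic naive CD4+, CD62L-high, CD25-negative T cells of C57BL/6J background, cultured for 42 h towards the Th17 fate. The groups were Irf4 -/- (null) and Irf4 +/- (heterozygous), with 3 arrays each, so the controls carry a single functional allele and are not wild type. Cells of both groups were stimulated through CD3 (coated plates) and CD28 with IL-6, human TGF-beta and IL-23 in the medium, while interferon gamma and IL-4 were neutralised with antibodies. The design text calls the samples of a group biological replicates, and the labels do not say if each came from a different animal. Each sample was labelled with Cy5 and hybridised with a Cy3-labelled commercial pool of RNA from 11 mouse tissues, with no dye swap. A value is therefore a log2 ratio to that pool, where 0 means as much signal as in the pool. Such a ratio does not rank 1 gene's abundance against another's.

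IRF4 is a transcription factor of the interferon regulatory factor family that lymphocytes make after antigen receptor signalling. It binds DNA weakly alone and mostly acts with partners, with BATF and JUN proteins at AP-1-IRF composite elements in T cells and with the ETS proteins PU.1 and SPI-B at ETS-IRF composite elements in B cells. Mice without it make few Th17 cells. The comparison asks which transcripts depend on a functional copy of the gene under Th17 conditions.

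Irf4 itself, which was set aside by name, read 3.02, 2.85 and 2.93 in heterozygous cells and 0.62, 0.65 and 0.73 in null cells. Its null arrays all lay below its heterozygous arrays, by 4.81-fold in the group means. Neither the deleted exons nor the probe's position in Irf4 was known from the labels. For heterozygous replicate 3 the description line writes the genotype ambiguously, and the group was taken from its title and genotype field. T cell identity could not be checked here, because only genes changed over 2-fold are listed and a marker that did not change is absent. Of 7 fixed T cell markers 1 is listed. That marker, the costimulatory receptor gene Cd28, read 0, 0.32 and 0 in null cells and 0.78, 1.07 and 2.16 in heterozygous cells. It did not pass the fit over all features.

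The null arrays were not alike over the members. Across all features, which are not independent replicates, null replicate 3 was nearest to null replicate 2 (r = 0.961). Null replicate 1 stood apart, at r = 0.935 and 0.914 to null replicates 2 and 3 and 0.894, 0.885 and 0.893 to the heterozygous arrays, where null replicate 3 had 0.933, 0.940 and 0.937 to the latter. Over the 83 members the median distance from the heterozygous mean was -1.89 on null replicate 1, -1.66 on null replicate 2 and -1.38 on null replicate 3, all on the log2 scale. By this measure over members, null replicate 3 was the nearest to the controls. It held the highest of the 3 null values for 50 of the 73 members without tied null values (68.5%), against 42.2% of all features without ties. Null replicate 1 held the highest for 9 members and the lowest for 47. Among the 278 other listed genes that were lower in null cells, the same medians were -1.44, -1.31 and -1.26, and among the 328 that were higher they were 1.49, 1.41 and 1.41. On heterozygous replicates 1, 2 and 3 the medians over members were 0.01, -0.08 and 0.06.

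**Figure D1:**
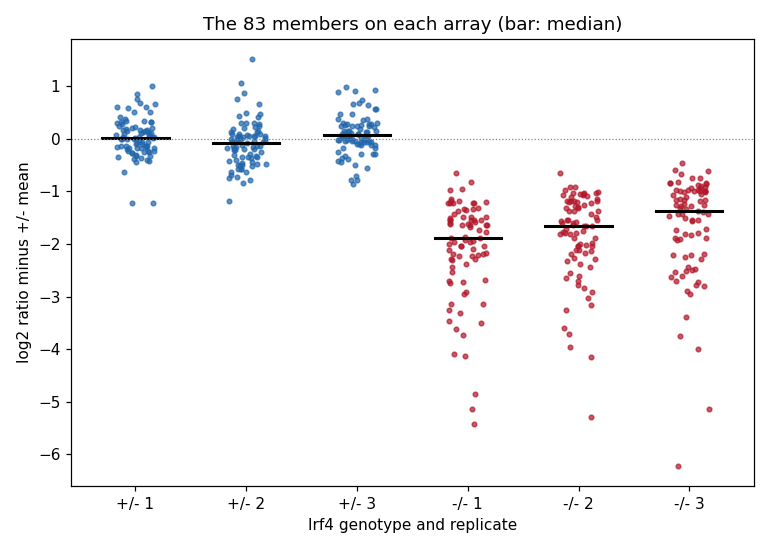
Log2 ratio of each of the 83 members minus that member's Irf4 +/- mean, on each of the 6 arrays (x axis: genotype and replicate; points: members; bars: medians). The medians of the -/- arrays are -1.89, -1.66 and -1.38, and each lies below the medians of the +/- arrays.

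The members differed widely in how much lower they were. The median log2 difference of null minus heterozygous cells was -1.62, or 3.08-fold lower, against -0.05 over all 22622 features, and the range ran from -1.01 to -5.64. At least 8-fold lower were 10 members, another 18 were 4-fold to 8-fold lower and 55 were 2-fold to 4-fold lower. Heterozygous means ran from 1.5 to 5.68 with a median of 2.57, and null means from -0.97 to 4.22 with a median of 0.78. In null cells 16 members had a mean at or below that of the pool, 37 lay above it by less than 1, and 30 stayed at least 1 above it. Those 30 included 14 whose null mean was still 2 or more. The 16 include 5 members at exactly 0 on all 3 null arrays, and the labels do not say what an exact 0 stands for. The groups did not overlap for any of the 83, where 17.6% of all features have every null value below every heterozygous value, and the rule used this contrast.

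**Figure D2:**
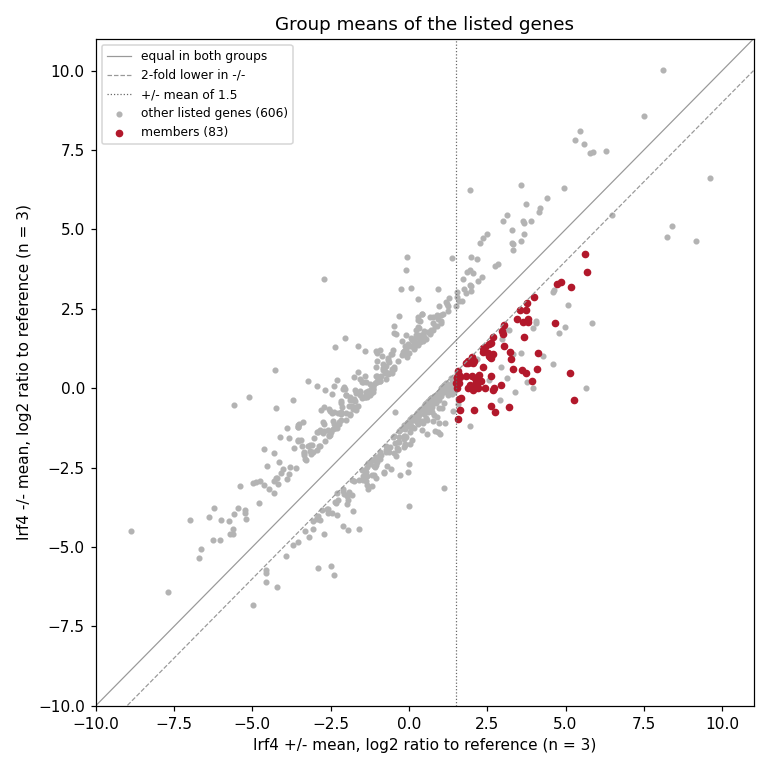
Mean log2 ratio to the reference in Irf4 +/- (x axis) and Irf4 -/- (y axis) cells for the 689 listed genes (n = 3 arrays each), with lines for equal means, for a 2-fold lower value and for the +/- limit of 1.5. The 83 members (red) fill the corner below the dashed line and right of the dotted line, with +/- means of 1.5 to 5.68. Grey points in that corner are genes set aside by name.

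In the limma fit over all 22622 features, 46 of the 83 members (55.4%) were lower with a Benjamini-Hochberg adjusted p under 0.05, where 1.17% of all features and 24.4% of the 689 listed genes were. In either direction 2.44% of all features passed, and 1.26% were higher, with 27.4% of the listed genes higher. Since the same contrast chose the members, nothing is read from that share, and "fell" is written here only of those 46. Leaving out null replicate 1, 2 or 3 gave 22, 7 and 31 members past the threshold, and leaving out heterozygous replicate 1, 2 or 3 gave 11, 28 and 8. Of the 46, 9 passed in none of these 6 fits, among them Plk5, Bmerb1, Olfm2, Cysrt1, Frmd4b, Map3k8, Ahrr and Tm4sf5. With each array centred on its median, Wdfy2, Frmd4b, Map3k8 and Furin did not pass, and with quantile normalization Abat, Ankrd34b, Wdfy2, Frmd4b and Furin did not. With exact zeros as missing, Bmerb1, Bpifc and Frmd4b were among those that no longer passed, although Frmd4b held no exact 0 itself. Gpr132 and Speer6-ps1, which are among the 46, could not be fitted then, because all their null values are exact zeros. In bulk samples, fewer cells that express a gene and less RNA per cell cannot be told apart.

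The limits of the choice leave close neighbours. Just inside the heterozygous limit were Frmd4b, Hemk1 and Zfp652, with heterozygous means of 1.5, 1.53 and 1.54. Just outside were LOC434369, 4732475C15Rik and Galnt3, with 1.5, 1.47 and 1.44 (LOC434369 lies below 1.5 before rounding). Just inside the limit on the difference were Plekha2, Olfr299 and Gng2, at -1.01, -1.03 and -1.03. No listed gene with a high enough heterozygous mean lay just outside that limit, because the authors' deposited table itself stops at 2-fold.

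**Figure D3:**
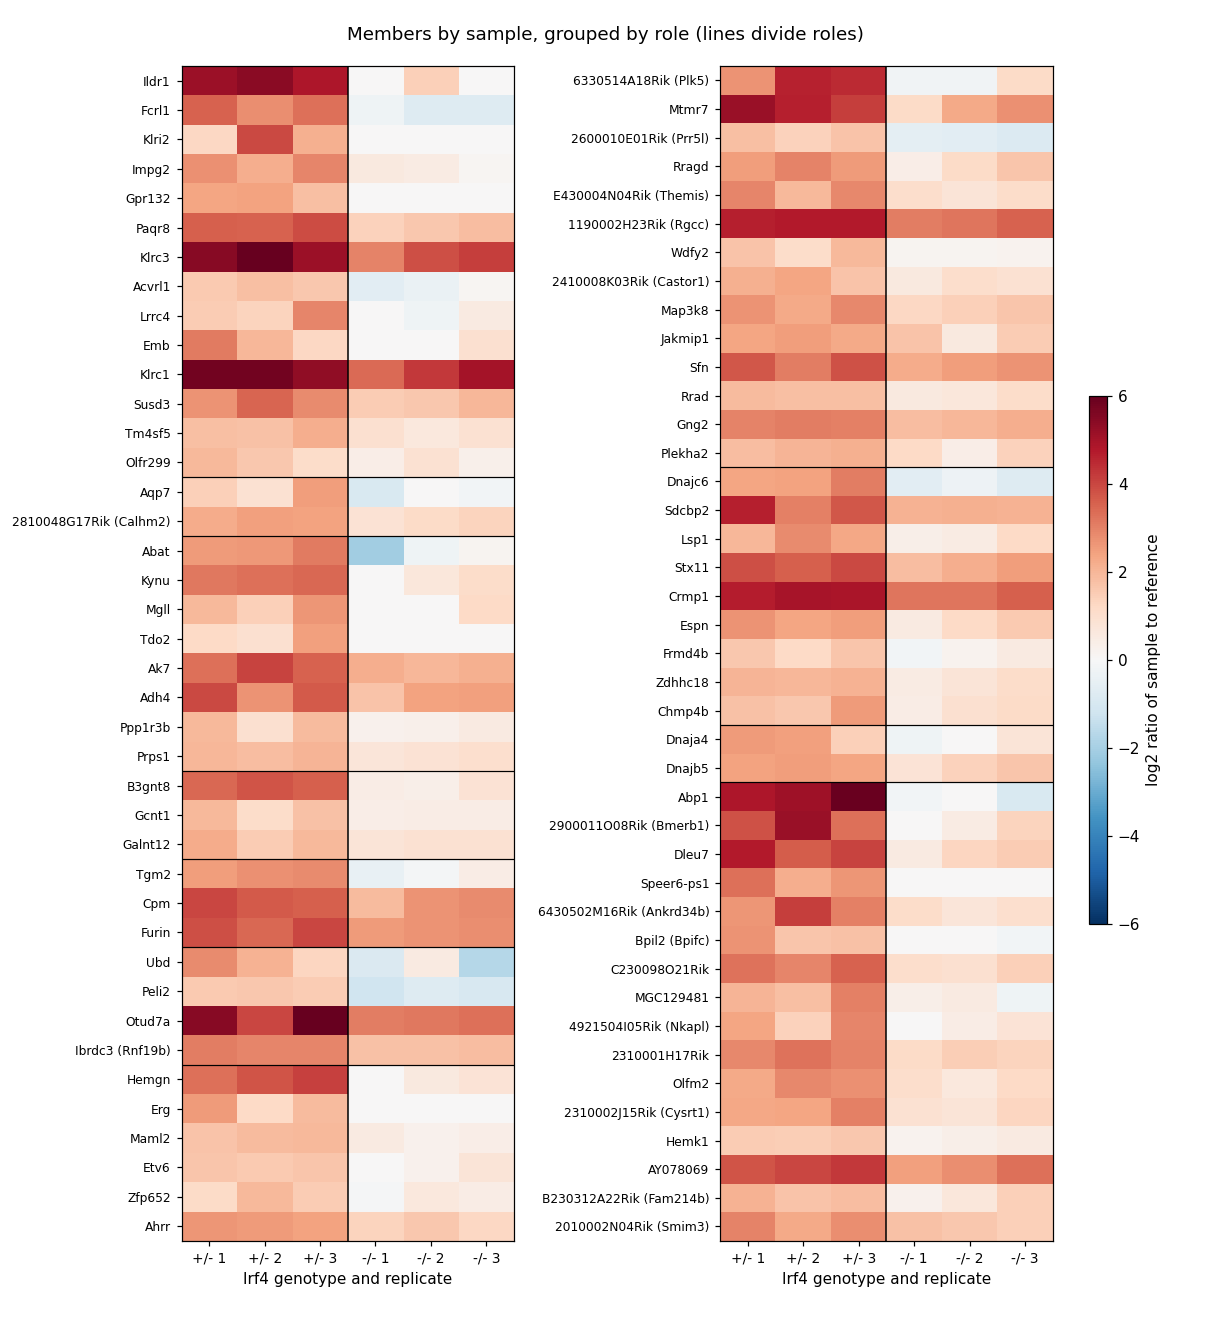
Log2 ratio to the reference of 81 of the 83 members (rows, in groups by role, with the current symbol in brackets where it differs) on the 3 Irf4 +/- and 3 Irf4 -/- arrays (columns). Each member shown is darker red in the +/- columns, and the -/- columns range from blue (below the pool) to red.

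Members encoding surface receptors and other membrane proteins numbered 14, of which 7 fell, where 55.4% of all 83 members did. Roles were assigned after the members were seen, so nothing is read from the counts by role. Ildr1, which encodes an immunoglobulin-like domain receptor related to the lipolysis-stimulated lipoprotein receptor, read 5.15, 5.41 and 4.86 in heterozygous cells and 0, 1.43 and 0 in null replicates 1, 2 and 3. Its null values were high only on replicate 2, and an exact 0 may be an estimate that failed. Without the zeros the difference was -3.71 on the log2 scale. Fcrl1, an Fc receptor-like gene known from B cells, fell 14.01-fold, with -0.25, -0.76 and -0.79 in null cells and 3.52, 2.78 and 3.32 in heterozygous cells. All 3 null values lay below the pool, and its listed probes were 22.5-fold and 8.73-fold lower. Of 10 markers fixed for B cells and plasma cells, only Cd24a, 5.24-fold lower, and Sdc1, 2.63-fold higher, are listed, and the part of such cells in Fcrl1 was not tested. Gpr132, which encodes a G protein-coupled receptor of lymphocytes and macrophages, read 2.35, 2.43 and 1.81 in heterozygous cells and 0 on every null array. Acvrl1, which encodes ALK1, a type I receptor of the TGF-beta superfamily that binds BMP ligands in endothelium, fell 3.90-fold from 1.65 ± 0.12 to -0.31 ± 0.38 (SD, n = 3 each). Paqr8, which encodes a membrane progesterone receptor, fell 4.14-fold from 3.68 ± 0.20 to 1.63 ± 0.23.

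Lectin-like receptor genes of natural killer cells were a group of neighbours among these members. Klrc1 and Klrc3 encode receptors of the NKG2 family, and Klri2 encodes a lectin-like receptor that pairs with KLRE1. In RefSeq gene order (GRCm38.p6) they lie together on chromosome 6, with 1 protein-coding gene between Klrc1 and Klrc3 and 1 between Klrc1 and Klri2. Klrc3 had the highest heterozygous mean ratio of the members, with 5.48, 6.42 and 5.13 in heterozygous cells and 2.99, 3.87 and 4.13 in null cells. Klrc1 came next, with 5.80, 5.78 and 5.30 against 3.40, 4.25 and 5.0. Both stayed far above the pool in null cells, and neither passed the adjusted threshold. Klri2 read 1.22, 3.95 and 2.16 in heterozygous cells and 0 in every null sample, a spread between replicates wider than for either neighbour. Klre1, the partner gene, was set aside by name and had group means of 0.19 in null and 3.76 in heterozygous cells. Klrc1 and Klrc3 are closely related copies, so their probes may share signal.

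Other listed markers of CD8 T cells and natural killer cells did not share that direction in their group means. Cd8a read 4.71, 4.28 and 4.75 in null cells and 3.34, 4.0 and 2.53 in heterozygous cells, and Prf1, which encodes perforin, had group means of 4.85 and 2.49. Neither passed the adjusted threshold. Of 9 markers fixed for these cells 4 are listed, with Klre1 lower past the threshold, and Cd8a, Prf1 and Eomes with higher null means. Eomes had group means of 1.39 in null and -0.02 in heterozygous cells and did not pass either. Of 10 markers fixed for dendritic cells and MHC class II, 3 are listed, with Cd86 5.45-fold lower and H2-DMb1 2.35-fold higher past the threshold, and Itgax 2.50-fold lower in the means without passing. The part of any of these cells in the values of the members was not tested. No fixed marker of gamma-delta T cells, monocytes and granulocytes, platelets, or mast cells and basophils is listed. A marker that did not change between the groups would not be listed.

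The remaining surface members include genes known from other tissues. Emb, which encodes embigin, a partner of monocarboxylate transporters, read 0, 0 and 0.96 against 3.13, 1.97 and 1.26. Lrrc4, which encodes a synaptic adhesion protein that binds netrin-G2, read 0, -0.24 and 0.54 against 1.53, 1.35 and 2.93. In both genes at least 1 null array was listed at exactly 0 and the heterozygous arrays were far apart, and neither gene passed. Impg2, a proteoglycan gene of the retina, fell 4.66-fold, and Tm4sf5, a tetraspan membrane protein gene, fell 2.12-fold. Susd3 and the olfactory receptor gene Olfr299 had differences of -1.28 and -1.03. Olfr299 read 0.38, 0.92 and 0.31 in null and 1.95, 1.64 and 1.12 in heterozygous cells, so the groups nearly met.

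Of 24 listed genes that a prefix list assigned to immunoglobulin superfamily, Fc receptor, lectin or histocompatibility genes, 7 were lower and 6 higher past the threshold. Over all 689 listed genes 24.4% were lower and 27.4% higher past it, and nothing is read from any list count. The median difference of the 24 was -1.14, against -1.02 over all 689 listed genes. Only genes changed over 2-fold in either direction are listed, so both medians depend mainly on which direction has more genes. Of 16 listed genes with G protein-coupled receptor prefixes, 5 were lower and 2 higher past the threshold, and 2 of the 16 were members.

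**Figure D4:**
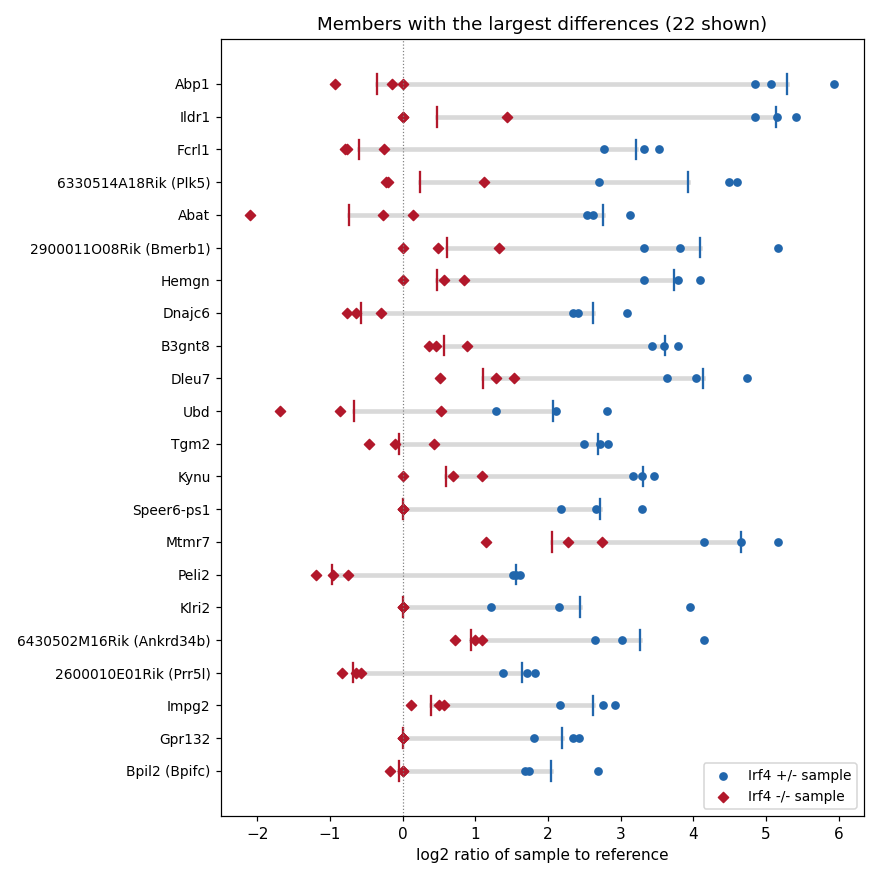
Log2 ratio to the reference (x axis) of 22 of the 24 members with the largest differences (y axis) in each Irf4 +/- (blue circles) and Irf4 -/- (red diamonds) sample, with vertical ticks at the group means. For each of the 22 the red points lie left of all the blue points, and several red points coincide at exactly 0.

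Genes for channels and pores were also among the members. Calhm2, listed as 2810048G17Rik and coding for a member of the calcium homeostasis modulator family, fell 2.35-fold from 2.36 ± 0.12 to 1.13 ± 0.25 (SD, n = 3 each). Aqp7, which encodes a channel for water and glycerol, read -0.92, 0.04 and -0.18 against 1.43, 0.89 and 2.51 and did not pass, with heterozygous values that ran over a range wider than 1.

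Metabolic enzymes numbered 8, of which 4 fell (55.4% of all members did), and they included genes of tryptophan and GABA breakdown. Kynu encodes kynureninase, which cleaves kynurenine, and Tdo2 encodes tryptophan 2,3-dioxygenase, which opens the same pathway in liver. Kynu fell, from 3.17, 3.30 and 3.46 in heterozygous cells to 0, 0.70 and 1.10 in null cells, and without its exact 0 the difference was -2.41. Tdo2 was listed at 0 on all 3 null arrays against 1.21, 0.97 and 2.47, and did not pass. Both genes were lower on every null array, with the heterozygous values tight for Kynu and wide for Tdo2. Abat, which encodes the transaminase that degrades GABA, fell 11.3-fold, with -2.09, -0.26 and 0.14 against 2.54, 2.62 and 3.13. Its 3 null values were far apart, with replicate 1 much the lowest.

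Among the other enzymes, Prps1, which encodes a phosphoribosyl pyrophosphate synthetase that feeds nucleotide synthesis, fell 2.13-fold from 1.97 ± 0.10 to 0.87 ± 0.14 (SD, n = 3 each), and Ak7, an adenylate kinase gene, fell 2.93-fold from 3.64 ± 0.38 to 2.10 ± 0.09. Mgll, which encodes monoacylglycerol lipase, read 0, 0 and 1.17 against 1.96, 1.43 and 2.64. Without its exact zeros a single null value was left for Mgll, and the difference was -0.84, short of the limit on the difference. Adh4, an alcohol dehydrogenase gene, and Ppp1r3b, which encodes a subunit that brings protein phosphatase 1 to glycogen, had differences of -1.27 and -1.25 and did not pass. Of 54 genes on a fixed list of amino acid, amine, nucleotide and one-carbon metabolism, 3 are listed, with Abp1 and Kynu lower and Nt5e higher past the threshold. The symbol Abp1 is shared by several current genes, so its place on this list is uncertain. None of the 5 listed glycolysis and hypoxia genes was a member or passed, and their median difference was -1.07.

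Glycosyltransferase genes gave 3 members that act at different steps. B3gnt8, which encodes an enzyme that extends polylactosamine chains, fell 8.22-fold, with 0.46, 0.36 and 0.89 in null and 3.44, 3.79 and 3.60 in heterozygous cells. The arrays of each group lay close together, far apart from the other group. Gcnt1, which encodes the enzyme that forms core 2 branches on O-glycans such as those of selectin ligands, read 0.40, 0.43 and 0.44 against 1.96, 1.12 and 1.77 as the mean of 3 listed probes that were 2.61-fold, 2.27-fold and 2.01-fold lower. Galnt12, which starts O-glycan chains, read 0.76, 0.93 and 0.91 against 2.21, 1.53 and 1.97. Neither Gcnt1 nor Galnt12 passed, and in both the heterozygous replicate 2 was the lowest control. Of 11 listed genes with glycosylation or sulfation prefixes, 4 were lower and 3 higher past the threshold. The shares of all listed genes were 24.4% and 27.4%.

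Peptidase genes and a transglutaminase gene were also among the members. Furin, which encodes the proprotein convertase that matures TGF-beta among other precursors, fell 2.14-fold, with 2.55, 2.69 and 2.80 in null and 3.87, 3.45 and 4.01 in heterozygous cells. Its call was lost with centring, with quantile normalization and in 5 of the 6 fits with 1 array left out. Furin was the 1 member on a fixed list of Th17-associated genes, of which 17 are listed and 13 were lower and 0 higher past the threshold. The targeted gene Irf4 is among those 13, and 24.4% of all 689 listed genes were lower past the threshold. The list was chosen with earlier results of these data known, so nothing is read from this count. Cpm, which encodes the membrane-bound carboxypeptidase M, read 1.89, 2.67 and 2.85 against 3.99, 3.70 and 3.57 and did not pass. Both peptidase genes stayed above the pool on every null array. Tgm2, which encodes the protein cross-linking enzyme transglutaminase 2, fell 6.62-fold from 2.68 ± 0.17 to -0.04 ± 0.45 (SD, n = 3 each). Its 3 listed probes were 6.75-fold, 6.61-fold and 6.51-fold lower, the closest match among the members with 3 listed probes. Of 17 listed genes with protease or protease inhibitor prefixes, 2 were lower and 7 higher past the threshold. The shares of all listed genes were 24.4% and 27.4%.

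Genes of the ubiquitin pathway gave 4 members. Peli2, which encodes a Pellino ubiquitin ligase of IL-1 and Toll-like receptor signalling, fell 5.78-fold, with -1.19, -0.76 and -0.96 in null and 1.56, 1.62 and 1.52 in heterozygous cells. Each null array lay below the pool, yet its 3 listed probes disagreed in size at 11.5-fold, 7.18-fold and 2.33-fold lower. Rnf19b, listed as Ibrdc3 and coding for a ubiquitin ligase known from natural killer cells, fell 2.26-fold from 2.98 ± 0.08 to 1.81 ± 0.06 (SD, n = 3 each). Otud7a, a deubiquitinase gene, read 3.08, 3.18 and 3.29 against 5.45, 3.99 and 6.07, with tight null and wide heterozygous values. Ubd, which encodes the ubiquitin-like protein FAT10, read -0.85, 0.53 and -1.69 against 2.81, 2.11 and 1.29. Neither Otud7a nor Ubd passed.

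Transcription factors and their cofactors were also among the members. Hemgn, a nuclear protein gene of blood progenitors and a fixed erythroid marker, fell from 3.32, 3.79 and 4.09 in heterozygous cells to 0, 0.57 and 0.84 in null cells, and by 3.03 on the log2 scale without the exact 0. It is the 1 listed gene of 7 fixed erythroid markers, so the presence of erythroid cells could not be checked with the others, and their part in its value was not tested. The ETS family gave a pair of members. Erg read 2.56, 1.19 and 1.91 in heterozygous cells and 0 in every null sample, without passing, and Etv6, which encodes a repressor of the family, fell 2.45-fold, with 0.01, 0.26 and 0.76 against 1.67, 1.57 and 1.68. Ahrr, which encodes the repressor of the aryl hydrocarbon receptor and is itself induced by that receptor, fell 2.23-fold, with 1.32, 1.62 and 1.22 against 2.66, 2.56 and 2.43. The groups were tight and well apart. Maml2, a coactivator gene of Notch, fell 2.73-fold from 1.84 ± 0.12 to 0.39 ± 0.14 (SD, n = 3 each). The zinc finger gene Zfp652 read -0.09, 0.62 and 0.47 against 1.17, 1.95 and 1.51 and did not pass. Over 46 listed genes with transcription or chromatin factor prefixes, 12 were lower and 13 higher past the threshold. The shares of all listed genes were 24.4% and 27.4%, and nothing is read from the count.

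Signalling genes were the other large group, with 14 members of which 7 fell (55.4% of all members did). Some are known from the kinase complexes of mTOR, and no list of such genes was counted. Castor1, listed as 2410008K03Rik, encodes an arginine sensor of mTORC1, Rragd encodes a Rag GTPase that recruits mTORC1 to lysosomes, and Prr5l, listed as 2600010E01Rik, encodes a protein bound to mTORC2. Prr5l fell 5.01-fold, with -0.57, -0.64 and -0.83 in null and 1.83, 1.39 and 1.72 in heterozygous cells. Its values were tight in both groups, and below the pool on each null array. Rragd read 0.40, 1.14 and 1.67 against 2.52, 2.99 and 2.57, and Castor1 0.58, 1.07 and 0.92 against 2.15, 2.37 and 1.72. Neither passed, and for Rragd null replicate 3 was the nearest to the controls.

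Among kinases and adaptors, Map3k8, which encodes the kinase TPL2 that links NF-kappaB1 to ERK activation, fell 2.28-fold, with 1.25, 1.41 and 1.64 against 2.71, 2.28 and 2.88. Plk5, listed as 6330514A18Rik and related to the polo-like kinases, fell 12.9-fold, with -0.20, -0.22 and 1.13 against 2.70, 4.6 and 4.49. Heterozygous replicate 1 was the lowest control and null replicate 3 the highest null value, each well apart from the rest of its group. Themis, listed as E430004N04Rik and coding for a T cell receptor signalling protein needed in thymocyte selection, read 1.04, 0.79 and 1.12 against 2.93, 1.96 and 2.87. Its listed probes were 3.33-fold and 2.76-fold lower, and it did not pass. Jakmip1, which encodes a protein that binds JAK kinases and microtubules, read 1.73, 0.58 and 1.53 against 2.38, 2.50 and 2.25.

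The other signalling members stayed above the pool in the null mean. Rgcc, listed as 1190002H23Rik and known as a regulator of the cell cycle, fell 2.68-fold, with 3.09, 3.23 and 3.56 against 4.64, 4.77 and 4.73. Mtmr7, which encodes a myotubularin-related phosphoinositide phosphatase, read 1.15, 2.27 and 2.74 against 5.16, 4.66 and 4.15. The null values of Mtmr7 were spread and it did not pass, while those of Rgcc were close together. Gng2, a G protein gamma subunit gene, fell 2.05-fold, with 1.85, 1.97 and 2.17 against 2.97, 3.09 and 3.03. Rrad, which encodes a Ras-related GTPase that restrains calcium channels, fell 2.05-fold, with 0.60, 0.68 and 1.08 against 1.88, 1.80 and 1.80. Plekha2, which encodes a protein that binds phosphatidylinositol 3,4-bisphosphate, read 1.19, 0.41 and 1.40 against 1.85, 2.04 and 2.14 and did not pass. Wdfy2, which encodes an endosomal protein, fell 2.66-fold, and Sfn, which encodes 14-3-3 sigma, had a difference of -1.06. Among 27 listed genes with kinase, phosphatase or adaptor prefixes, 4 were lower and 9 higher past the threshold. Among 24 with small GTPase, G protein or RGS prefixes, 5 were lower and 3 higher. The shares of all listed genes were 24.4% and 27.4%.

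Vesicle traffic, cytoskeleton and palmitoylation gave 9 members, of which 5 fell (55.4% of all members did). Dnajc6, which encodes auxilin, the J-domain protein that uncoats clathrin vesicles, fell 9.09-fold, with -0.63, -0.29 and -0.77 in null and 2.35, 2.42 and 3.09 in heterozygous cells. Stx11, which encodes a syntaxin needed for cytotoxic granule release, fell 3.08-fold, with 1.84, 2.16 and 2.52 against 3.85, 3.59 and 3.95. Dnajc6 went below the pool in null cells, whereas Stx11 stayed above it on each array. Crmp1, which encodes a collapsin response mediator that binds microtubules, fell 2.88-fold, with 3.22, 3.19 and 3.59 against 4.73, 4.94 and 4.92. Zdhhc18, a palmitoyltransferase gene, fell 2.36-fold, and Frmd4b, a FERM domain gene, fell 2.50-fold, with -0.18, 0.20 and 0.52 against 1.62, 1.21 and 1.68. Chmp4b of the ESCRT-III complex, the actin-binding genes Lsp1 and Espn and the syntenin-2 gene Sdcbp2 had differences of -1.14, -1.70, -1.41 and -1.71 and did not pass. The other J-domain co-chaperone genes, Dnaja4 and Dnajb5, read -0.25, 0 and 0.79 against 2.55, 2.45 and 1.42 and 0.82, 1.41 and 1.68 against 2.42, 2.51 and 2.36, and neither passed. Of 36 listed genes with cytoskeleton, motor or vesicle prefixes, 9 were lower and 8 higher past the threshold. The shares of all listed genes were 24.4% and 27.4%.

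The remaining 16 members have no role assigned here, and 11 of them fell, where 55.4% of all members did. The largest difference of all was that of Abp1, an old symbol shared by several current genes, so the gene behind it is uncertain. Abp1 read -0.14, 0 and -0.93 in null and 4.85, 5.06 and 5.94 in heterozygous cells, and without its exact 0 it fell by 5.82 on the log2 scale. Bmerb1, listed as 2900011O08Rik, read 0, 0.49 and 1.32 against 3.82, 5.16 and 3.32, and its listed probes were 25.4-fold and 5.0-fold lower. The first of these probes was at exactly 0 on null replicates 1 and 2. Dleu7 fell 8.12-fold, with 0.52, 1.29 and 1.53 against 4.74, 3.63 and 4.03. These 3 genes had heterozygous means above 4, and the null values of Abp1 alone lay at or below the pool on every array. Speer6-ps1, a pseudogene, read 3.30, 2.19 and 2.66 in heterozygous cells and 0 in every null sample, and Bpifc, listed as Bpil2, read 0, 0 and -0.17 against 2.69, 1.68 and 1.74. Nkapl, listed as 4921504I05Rik, read 0, 0.43 and 0.80 against 2.39, 1.39 and 2.92 and did not pass. Ankrd34b, listed as 6430502M16Rik, fell 5.04-fold, with 1.10, 0.72 and 0.99 against 2.64, 4.14 and 3.02. Hemk1, a protein methyltransferase gene, fell 2.27-fold, with 0.21, 0.33 and 0.53 against 1.52, 1.46 and 1.62. The secreted olfactomedin gene Olfm2, Cysrt1 (listed as 2310002J15Rik), C230098O21Rik and 2310001H17Rik also fell, by 1.68, 1.56, 2.09 and 1.73 on the log2 scale. AY078069, MGC129481, Fam214b (B230312A22Rik) and Smim3 (2010002N04Rik) had differences of -1.13, -2.07, -1.10 and -1.08 and did not pass.

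Exact zeros were frequent among the members' null values. Of the 102 listed probes of members, 22 in 21 members had a null ratio of exactly 0, and none had a heterozygous one. On null replicates 1, 2 and 3, 17.6%, 13.7% and 6.86% of these probes were at 0, against 5.28%, 3.77% and 2.22% of all probes. The rule asked for high heterozygous and lower null values, which favours zeros in null cells and works against them in heterozygous cells. Nothing is therefore read from these shares. In the values averaged over a member's probes, 17 members were at exactly 0, on 1 array for 7 of them, on 2 arrays for 5 and on all 3 arrays for 5. For the other 4, Fcrl1, Impg2, Peli2 and Themis, a zero of 1 probe is averaged with other probes. On the heterozygous arrays 1.71%, 0.673% and 3.24% of all probes were at 0. The 5 members at 0 on all 3 null arrays were Speer6-ps1, Klri2, Gpr132, Erg and Tdo2, so no fold is given for them. Neither the labels nor the file headers say what an exact 0 stands for.

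Where several probes of a member are listed, they had 1 direction. The 16 members with more than 1 listed probe had 35 listed probes, and all 35 were lower in null cells, although each was listed because it changed. The members stood on most chromosomes of the RefSeq gene table, with 11 on chromosome 4 and 7 on chromosome 6 as the highest counts. These counts were not set against the number of genes on each chromosome, so nothing is read from them. Beside the lectin receptor genes, Sfn and Zdhhc18 lie next to each other on chromosome 4, and Crmp1 and Jakmip1 lie on chromosome 5 with 1 protein-coding gene between them.

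Promoter sequence was set beside the members because IRF4 acts through short composite motifs. RefSeq promoter sequences (GRCm38.p6) were found for 62 of the 83 members, some with several start sites, and the 250 bases before each start were searched on both strands. The ETS-IRF composite core GGAANNGAAA was present in 2 members (3.23%), Prr5l and Wdfy2, against 2.68% of all 27025 genes with a promoter. The interferon-stimulated response core GAAANNGAAA was present in 0 of 62 members, against 3.46% of all genes, 2.27% of the 220 other listed genes that were lower in null cells and 7.17% of the 237 that were higher. Neither the AP-1-IRF composite with 4 bases between its parts, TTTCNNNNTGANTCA, nor the adjacent form, GAAATGANTCA, was found in a member, and 0.115% and 0.118% of all genes hold them. The AP-1 core TGANTCA, which both of these contain, was present in 9 members (14.5%), against 7.82% of all genes, 10.9% of the other listed genes that were lower and 9.70% of those that were higher. Counted by start site, the core was in 9 of 88 windows of members (10.2%), in 6.75% of all windows, and in 8.19% and 7.59% of those of the other lower and the higher listed genes. A match says only that the letters are there.

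The promoters of both members with an ETS-IRF core, and of the 3 members with an AP-1 core that had the largest differences, are shown so that the matches can be read in place. Each runs 5′ to 3′ on the gene's strand and ends at the base before the start site, with the match in capitals.
Prr5l, chr2:101883028-101883277, minus strand: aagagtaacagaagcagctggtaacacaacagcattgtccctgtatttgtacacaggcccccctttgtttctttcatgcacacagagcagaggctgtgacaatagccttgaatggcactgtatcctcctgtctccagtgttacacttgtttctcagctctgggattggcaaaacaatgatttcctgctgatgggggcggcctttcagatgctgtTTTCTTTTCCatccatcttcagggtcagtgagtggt
Wdfy2, chr14:62837440-62837689, plus strand: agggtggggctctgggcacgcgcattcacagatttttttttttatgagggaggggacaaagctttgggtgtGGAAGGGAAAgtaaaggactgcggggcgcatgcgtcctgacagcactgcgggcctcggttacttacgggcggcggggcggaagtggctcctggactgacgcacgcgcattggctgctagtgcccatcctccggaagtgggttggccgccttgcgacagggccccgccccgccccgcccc
Fcrl1, chr3:87376137-87376386, plus strand: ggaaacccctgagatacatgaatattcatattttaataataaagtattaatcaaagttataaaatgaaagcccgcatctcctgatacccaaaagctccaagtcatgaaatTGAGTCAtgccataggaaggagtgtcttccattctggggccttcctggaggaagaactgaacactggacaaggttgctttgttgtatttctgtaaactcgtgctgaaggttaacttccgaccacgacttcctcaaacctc
Impg2, chr16:56204063-56204312, plus strand: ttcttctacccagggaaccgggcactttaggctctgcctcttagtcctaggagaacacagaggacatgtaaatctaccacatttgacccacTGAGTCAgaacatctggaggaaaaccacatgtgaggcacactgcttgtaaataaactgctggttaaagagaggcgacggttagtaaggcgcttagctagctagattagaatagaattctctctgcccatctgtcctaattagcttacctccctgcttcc
Bpifc, chr10:86011861-86012110, minus strand: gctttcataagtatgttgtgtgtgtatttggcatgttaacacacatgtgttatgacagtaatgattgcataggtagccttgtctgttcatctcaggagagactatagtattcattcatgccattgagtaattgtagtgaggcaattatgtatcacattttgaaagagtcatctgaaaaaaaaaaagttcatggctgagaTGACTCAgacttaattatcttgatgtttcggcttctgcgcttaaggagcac
The ETS-IRF match of Prr5l starts 36 bases before the gene's start and that of Wdfy2 179 bases before it. The AP-1 match of Fcrl1 starts 140 bases before the start, that of Impg2 159 bases and that of Bpifc 51 bases.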

How the data were processed

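Per the labels, RNA of 3 Irf4 null and 3 Irf4 heterozygous samples was hybridised to 2-colour Agilent arrays against a common reference, and the submitters' processing notes name Agilent Feature Extraction 10.7 and Partek. The authors deposited 1 value per sample and probe (22749 probes), the log2 ratio to the reference, described as normalized per the file headers. The authors' deposited fold changes, a signed score for 828 probes, gave the base and the genotype direction, since their log2 differed from the null minus heterozygous means by at most 1.03e-05. That table gives unadjusted p-values of a 1-way ANOVA (Partek Genomic Suite 6.6), limited per the file headers to over 2-fold change and p under 0.05. It names 816 probes of 689 genes, and 21933 probes are unnamed here. Intensities were not used here, so dim probes could not be filtered and the number of arrays limits the precision.

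Listed probes of a gene were averaged, and 22622 features were fitted with limma 3.58.1 (R 4.3.3) without covariates, tested on simulated data. The threshold was a Benjamini-Hochberg adjusted p of 0.05 over every feature. Exact ratios of 0 were kept. Of the 83 listed symbols of members, 64 were current, 15 were updated through RefSeq synonyms (GRCm38.p6), 1 matched several genes and 3 were unmatched. Lists were of symbols or symbol prefixes, so a list can take in an unrelated gene. Per-sample values are given for the largest differences and highest heterozygous means, the genes at the limits, null ratios of exactly 0 and members of the lists, and 2 members are not reported here by name. The members, lists and roles were chosen with earlier results of these data known. After group means were taken off, samples with the same number correlated at 0.097, -0.012 and -0.037, so the numbers were not used as pairs. Alternatives were another normalization, zeros as missing, other limits, variance models and tests, and each array left out.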

Additional observations from a re-analysis of the deposited data

How the results depend on the processing

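The 83 members became 48 with a difference of at most -1.5, and 71 to 85 with 1 array left out. Centring each array, quantile normalization, zeros as missing, the probe with the smallest change and heterozygous limits of 1 and 2 gave 78, 79, 77, 80, 119 and 61, as separate counts. The median difference stayed between -1.52 and -1.80 over the alternatives tried for it. Of the 83 members 46 passed, against 7 to 31 with 1 array left out, 27 with the methods' t-test, 70 at an adjusted p under 0.1, and 40 to 52 with centring, quantile normalization, zeros as missing, robust or trended variances or the least changed probe. Of all features, 551 passed, against 30 to 239 with 1 array left out, 790 with the methods' t-test, of which 357 were shared, and 1299 at an adjusted p under 0.1, a limit that admits more by construction. With 1 array left out fewer samples were tested, and for the t-test and the block the cause was not tested. With the replicate block, 2 members and 13 features passed. The deviations of same-numbered samples gave no clear sign of pairing, and 2 of the 6 samples correlated best with their own number. No member reversed its direction under centring, quantile normalization, zeros as missing, the block or an array left out. That was favoured by the rule, which chose the members on the same difference, and none of them had overlapping groups. With zeros as missing, 5 members could not be fitted. Signal over background was not available to bound low ratios.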
